A study of Mus musculus with 12 samples.

Results

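The nuclear pore, karyopherin and mRNA export genes of CD8+ T cells were followed through antigen priming and costimulation. They were chosen by name as the protein-coding genes whose symbols start with Nup and a number, Kpna, Kpnb, Ipo, Xpo, Tnpo or Thoc and whose counts summed to 120 or more over the 12 libraries. Of the 55536 annotated genes, 50 had such a symbol and 48 reached the minimum. Just outside it were Nup62cl with 61 counts and Kpna7 with 48 counts, and the member with the fewest counts was Nup210l with 718. All 48 members passed the filter on low counts and were tested among 18817 genes.

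The cells were OT-I cells, CD8+ T cells that carry a transgenic receptor for the ovalbumin peptide SIINFEKL, on a C57BL/6J background (the study's methods give Rag1-/- or Rag2-/- OT-I donors, and an age range for all mice of both sexes but not by group). The Ag group (5 libraries) held OT-I cells transferred into C57BL/6J mice that received the peptide with control rat IgG. The Ag+Costim group (5 libraries) held cells from recipients given the peptide with agonist antibodies to OX40 (CD134) and 41BB (CD137). Both were sorted from spleen and lymph nodes and harvested at day 4 as the labels give it. The Naive group (2 libraries) was purified from OT-I mice without transfer, peptide or antibody, so transfer and priming cannot be told apart in a comparison with it. Poly(A) RNA was read as single-end cDNA sequence without strand. Library totals ran from 23976932 counts in Ag 4 to 49258758 counts in Ag+Costim 3, and 3 counts corresponded to a CPM (normalised count, scaled by library size) between 0.0609 and 0.125.

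Nuclear pores are large assemblies in the nuclear envelope, built of stacked rings with a channel lined by flexible Phe-Gly repeats, through which proteins and RNA pass. Karyopherins bind cargo and the repeats, and the GTPase Ran sets their direction: importins release cargo in the nucleus on meeting Ran-GTP, while exportins need Ran-GTP to hold theirs. The THO complex is loaded onto nascent transcripts and recruits the adaptors that hand mRNA to its export receptor. Activated T cells are known to enlarge their nuclei and to move transcription factors such as NFAT and NF-kB through these pores.

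To show the sequence at the start of members that moved most, promoters were taken from RefSeq (build GRCm38.p6, 250 bases before to 50 bases after the start, 5′ to 3′ on the gene's strand). The table held 45 promoters for 37 of the 48 members. Nup188 and Nup205 had the largest rises with costimulation, Kpna2 had the highest level per length there, and Thoc7, which has 2 starts in the table, was the member that fell. Capitals mark CACGTG (an E-box), the NRF1 motif, CCGGAAG (an ETS motif), GGGCGG (a GC box) and CCAAT, each searched on both strands. None of these 5 motifs contains another.

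Nup188 (chr2:30286166-30286465, plus strand): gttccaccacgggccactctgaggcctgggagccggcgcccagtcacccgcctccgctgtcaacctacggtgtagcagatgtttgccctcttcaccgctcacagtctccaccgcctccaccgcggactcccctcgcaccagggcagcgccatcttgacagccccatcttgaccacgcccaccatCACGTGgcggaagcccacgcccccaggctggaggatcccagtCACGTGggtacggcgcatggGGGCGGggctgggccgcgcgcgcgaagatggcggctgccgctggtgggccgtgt
Nup205 (chr6:35177366-35177665, plus strand): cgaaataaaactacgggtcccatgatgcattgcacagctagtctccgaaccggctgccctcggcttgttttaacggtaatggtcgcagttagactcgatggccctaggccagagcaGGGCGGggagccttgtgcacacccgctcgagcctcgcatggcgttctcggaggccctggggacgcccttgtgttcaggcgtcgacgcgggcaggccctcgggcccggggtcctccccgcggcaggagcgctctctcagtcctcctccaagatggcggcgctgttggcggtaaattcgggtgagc
Kpna2 (chr11:106999476-106999775, minus strand): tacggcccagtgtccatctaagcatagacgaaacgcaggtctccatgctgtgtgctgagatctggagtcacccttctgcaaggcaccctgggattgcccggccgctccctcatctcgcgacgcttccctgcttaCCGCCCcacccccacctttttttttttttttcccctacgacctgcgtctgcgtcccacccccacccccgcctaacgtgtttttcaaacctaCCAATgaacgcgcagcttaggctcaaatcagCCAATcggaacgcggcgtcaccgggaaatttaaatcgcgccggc
Thoc7, upstream start (chr14:13961803-13962102, minus strand): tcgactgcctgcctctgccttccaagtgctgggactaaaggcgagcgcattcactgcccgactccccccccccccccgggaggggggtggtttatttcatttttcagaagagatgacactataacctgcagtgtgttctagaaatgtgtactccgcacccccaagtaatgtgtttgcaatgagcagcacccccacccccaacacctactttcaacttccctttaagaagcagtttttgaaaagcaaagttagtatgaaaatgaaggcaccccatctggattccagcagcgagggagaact
Thoc7, downstream start (chr14:13961264-13961563, minus strand): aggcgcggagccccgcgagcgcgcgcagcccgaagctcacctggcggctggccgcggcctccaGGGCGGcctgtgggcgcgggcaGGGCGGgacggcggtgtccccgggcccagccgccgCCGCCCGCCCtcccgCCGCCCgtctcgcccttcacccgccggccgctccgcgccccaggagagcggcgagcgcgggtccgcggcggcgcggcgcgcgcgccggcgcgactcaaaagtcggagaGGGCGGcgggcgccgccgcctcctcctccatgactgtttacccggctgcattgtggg

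CACGTG stood at 2 places in the Nup188 promoter and was found in 7 of the 45 member promoters (15.6%), beside 7.15% of all 32851 promoters. The other 4 motifs were in 4 member promoters (8.89%) for the NRF1 motif, 8 (17.8%) for CCGGAAG, 29 (64.4%) for GGGCGG and 22 (48.9%) for CCAAT. Over all promoters their shares were 0.971%, 8.86%, 35.7% and 37.4%, respectively. The Thoc7 upstream start held none of them. These matches describe the letters in the window and no binding was measured.

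Costimulation raised nearly the whole group. Between Ag+Costim and Ag, 45 of the 48 members were higher and 1, Thoc7, was lower at an adjusted p under 0.05 in edgeR's quasi-likelihood test, where 26.6% of all genes were called higher and 26.5% lower. Thoc1 (log2 fold change 0.19, SE 0.09, adjusted p = 0.0949) and Nup210l (-0.50, SE 0.46, adjusted p = 0.393) were not called. The median log2 fold change was 1.42 over the members and -0.05 over all genes tested. In 42 members every Ag+Costim library lay above every Ag library, which held for 21.3% of all genes. In Thoc7 every Ag+Costim library lay below every Ag library, as in 18.5% of all genes.

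The members' part of each library's counts gave the same picture on a scale without a model. It was 0.233% to 0.267% (median 0.257%) in the 5 Ag libraries and 0.510% to 0.739% (median 0.612%) in the 5 Ag+Costim libraries. The Naive libraries lay between them at 0.325% and 0.336%, and no groups overlapped. In bulk RNA, more RNA of these genes per cell and more cells that express them cannot be told apart.

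**Figure D1:**
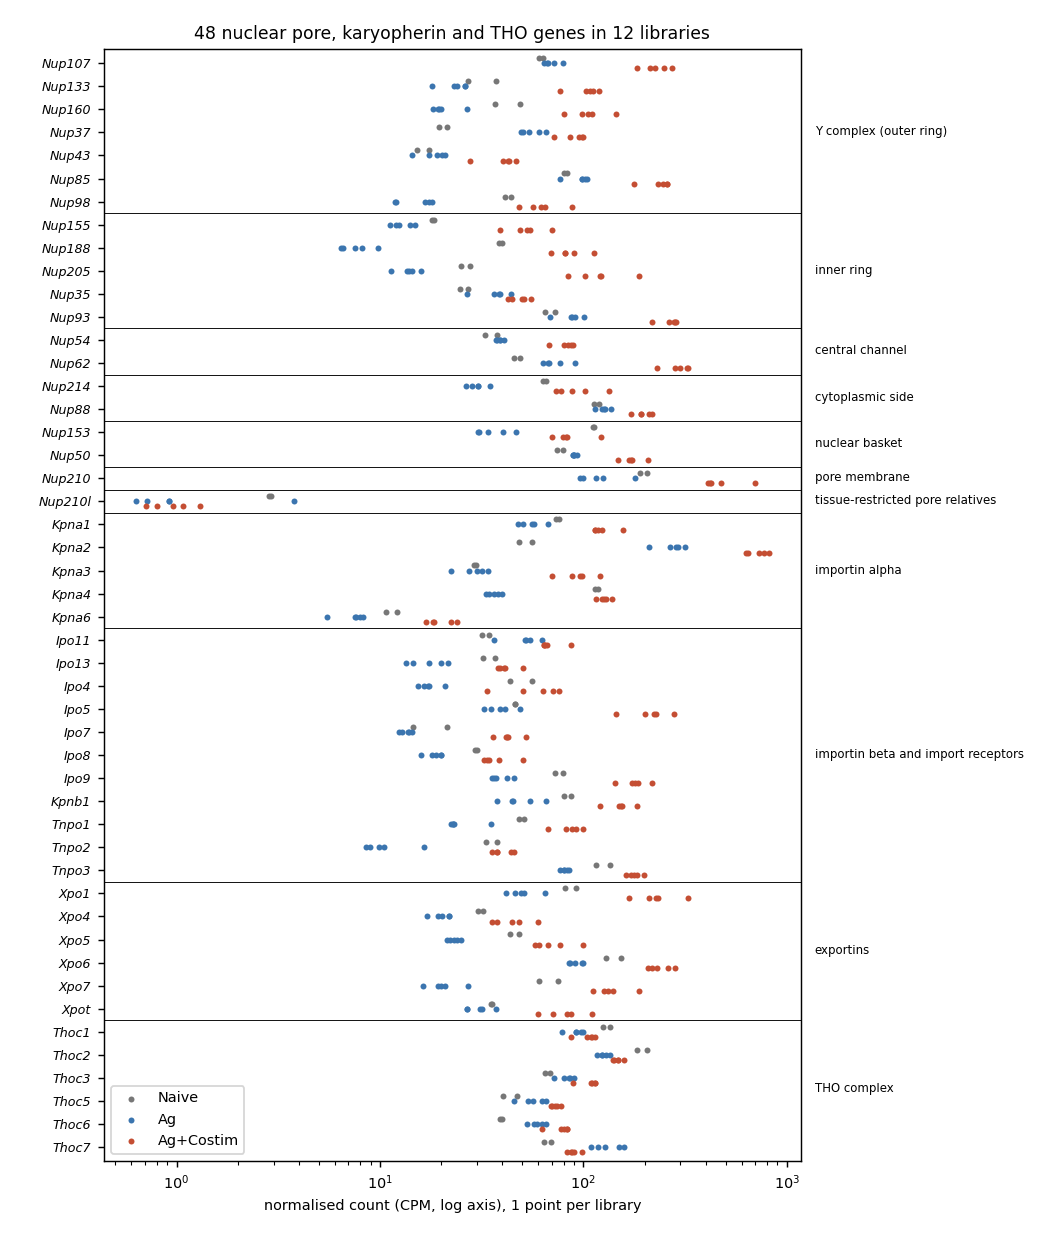
Normalised counts (CPM, log axis) of the 48 members in each of the 12 libraries, grouped by role (Naive grey, Ag blue, Ag+Costim red). In 42 members all 5 red points lie to the right of all 5 blue points, and Thoc7 shows the opposite order.

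Among the pore proteins, the inner ring, which ties the outer rings to the membrane and the channel, held the largest changes. Costimulation raised all 5 of its members (median log2 fold change 2.04). Nup188, a large scaffold protein of this ring (ENSMUSG00000052533.14, chr2:30286397-30344266 of GRCm38, plus strand), was at 38.6 and 39.7 CPM in the Naive libraries. Its Ag libraries read 6.60, 8.12, 7.53, 9.77 and 6.40 CPM, and its Ag+Costim libraries 80.9, 113, 89.9, 69.2 and 80.9 CPM. The 3 groups did not overlap, with Naive between the others. The rise with costimulation was 11.3-fold (log2 3.50, SE 0.15, adjusted p = 4.16e-09).

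Nup205, the scaffold paralogue of Nup188 (chr6:35177421-35247596, plus strand), had Naive values of 27.8 and 25 CPM. In Ag it was at 16.0, 13.6, 14.4, 13.9 and 11.3 CPM and in Ag+Costim at 122, 188, 120, 83.7 and 102 CPM. Every Ag library was below both Naive libraries and every Ag+Costim library was above them. The rise over Ag was 8.90-fold (log2 3.15, SE 0.19, adjusted p = 3.97e-08). Nup155 and Nup93, the remaining scaffold members of the ring, rose by 2.04 and 1.61 on the log2 scale. On the strand of Nup93, Gm45804 and Rpl10-ps5 held counts equal to 35.9% of those of Nup93 in Naive, 31.9% in Ag and 11.7% in Ag+Costim, so its reads may also be split uncertainly. Nup35 had the smallest change (0.40, SE 0.12, adjusted p = 0.0147), and its groups overlapped. Nup35 shares its strand with Dusp19, which held counts equal to 71.7% of those of Nup35 in Ag and 39.8% in Ag+Costim, so reads of the pair may be split uncertainly.

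The Y complex is the scaffold of the 2 outer rings, and all 7 of its members rose (median log2 fold change 1.72). Nup160 had the largest rise, 5.20-fold (log2 2.38, SE 0.16, adjusted p = 8.88e-08). Its Naive libraries read 36.8 and 48.9 CPM, its Ag libraries 19.5, 19.9, 19.3, 26.9 and 18.2 CPM and its Ag+Costim libraries 105, 145, 111, 80.3 and 98.7 CPM. Ag 4 stood apart from the other Ag libraries and was still below both Naive libraries. Nup98, whose precursor is cut into the channel protein Nup98 and the Y complex protein Nup96, was at 41.2 and 44.3 CPM in Naive, 11.9, 12, 18.1, 16.6 and 17.4 CPM in Ag and 62.1, 87.9, 64.5, 48 and 56.8 CPM in Ag+Costim. Ag lay below Naive and Ag+Costim above it. It rose 4.21-fold with costimulation (adjusted p = 4.26e-07). Nup37 differed from both in its order. It stood at 21.3 and 19.4 CPM in Naive, 49.6 to 65.2 CPM in Ag and 71.7 to 99.9 CPM in Ag+Costim, so that it was higher in each step.

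Nup62 and Nup54 carry Phe-Gly repeats of the central channel, and both rose. Nup62 was at 48.6 and 45.5 CPM in Naive, at 76.5, 90.7, 67.3, 67.9 and 63.2 CPM in Ag and at 297, 325, 327, 230 and 283 CPM in Ag+Costim. No libraries of different groups overlapped, and the rise over Ag was 4.00-fold (SE 0.12 on the log2 scale, adjusted p = 3.77e-08). On the cytoplasmic side, Nup214, which binds Xpo1, rose 3.17-fold (adjusted p = 8.81e-07). It was at 63.6 and 65.5 CPM in Naive, at 30.4, 30.3, 28.2, 34.7 and 26.4 CPM in Ag and at 88.4, 134, 102, 73.1 and 77.5 CPM with costimulation, with no overlap. Its partner Nup88 rose by 0.64 on the log2 scale.

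The nuclear basket members Nup153 and Nup50 rose by 1.26 and 0.95 on the log2 scale. Nup153 read 113 and 111 CPM in Naive, 34.1, 30.7, 30.5, 46.7 and 40.2 CPM in Ag and 82.0, 121, 83.3, 70.1 and 79.7 CPM in Ag+Costim. Thus its Ag+Costim libraries overlapped Naive while its Ag libraries lay below both groups. Nup210, a pore protein anchored in the membrane, was at 191 and 206 CPM in Naive, 124, 116, 96.7, 179 and 99.3 CPM in Ag and 425, 700, 475, 409 and 419 CPM in Ag+Costim. It rose 3.95-fold over Ag (adjusted p = 1.41e-06), and Ag+Costim 2 was the highest library. Its relative Nup210l was low throughout, at 2.90 and 2.86 CPM in Naive, 0.921, 0.716, 0.629, 3.76 and 0.914 CPM in Ag and 1.30, 0.798, 0.707, 1.07 and 0.961 CPM in Ag+Costim. Ag 4 was the highest of all libraries. Genes that overlap it on the same strand held 196% of its own counts in Ag, so its values are uncertain.

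**Figure D2:**
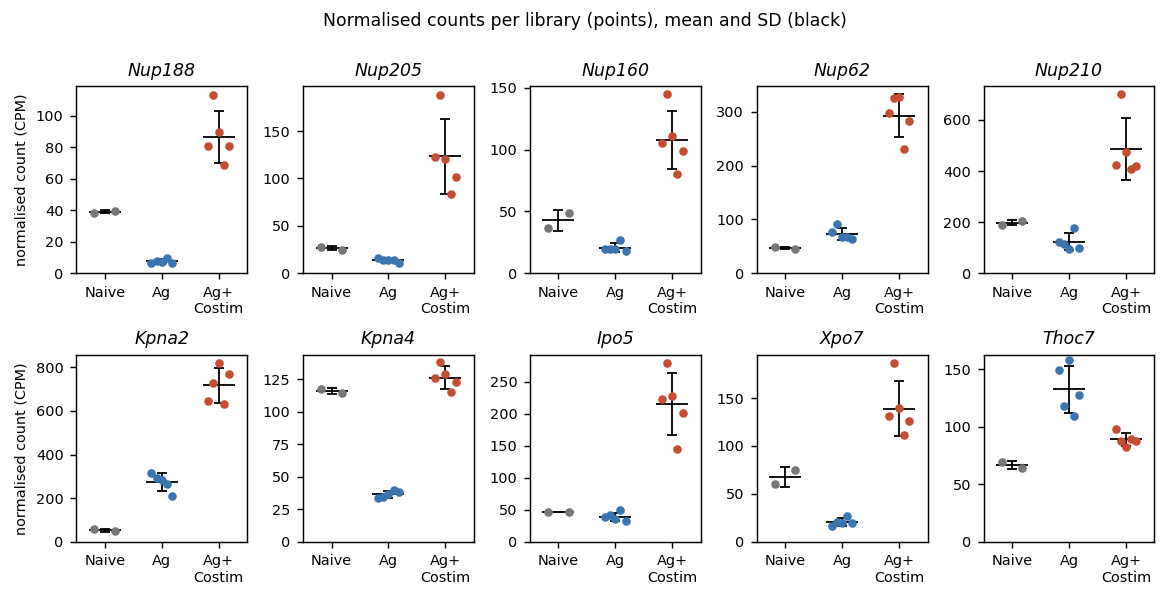
Normalised counts (CPM) of 10 members per library (points), with the mean and SD of each group in black (n = 2 Naive, 5 Ag, 5 Ag+Costim). Nup188 is at 6.40 to 9.77 CPM in Ag and 69.2 to 113 CPM in Ag+Costim, Kpna2 rises in each step, and Thoc7 is highest in Ag.

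Costimulation raised all 22 karyopherins (median log2 fold change 1.64), and in all 22 the 2 groups did not overlap. On the deposited FPKM scale, tested as log2(FPKM + 1) or log2(FPKM + 0.1) with limma, Xpo4 and Ipo11 were not called, nor were Thoc2 and Thoc3 of the THO genes. Importin alpha proteins bind the classical nuclear localisation signal and ride on importin beta. Kpna2, the importin alpha of dividing cells, was at 56.1 and 48.2 CPM in Naive, 315, 293, 284, 266 and 210 CPM in Ag and 647, 728, 819, 631 and 769 CPM in Ag+Costim. Each group was above the one before it, with a 5.24-fold rise from Naive to Ag (log2 2.39, SE 0.17, adjusted p = 3.22e-07) and a 2.63-fold rise from Ag to Ag+Costim (log2 1.39, SE 0.12, adjusted p = 4.39e-07). Kpna4 followed another course. It stood at 118 and 114 CPM in Naive, 33.3, 34.3, 36.5, 39.7 and 38.1 CPM in Ag and 126, 139, 129, 115 and 123 CPM in Ag+Costim. Its Ag+Costim libraries overlapped Naive (log2 difference 0.12, SE 0.10, adjusted p = 0.323), and its rise over Ag was 3.47-fold (adjusted p = 4.1e-09). Kpna1, Kpna3 and Kpna6 rose by 1.17, 1.70 and 1.43 on the log2 scale.

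Importin beta (Kpnb1) and its relatives carry cargo through the channel, alone or with an adaptor. All 11 rose, from 0.43 on the log2 scale for Ipo11 to 2.45 for Ipo5. Ipo11 was not called once a trend on transcript length was taken out of each library (0.02, SE 0.14, adjusted p = 0.934). Ipo5, which carries histones and ribosomal proteins, was at 46.3 and 46.1 CPM in Naive, 38.8, 41.2, 35.1, 48.7 and 32.4 CPM in Ag and 222, 279, 227, 144 and 201 CPM in Ag+Costim. Naive and Ag overlapped, and all Ag+Costim libraries were above both. Its rise was 5.48-fold (SE 0.16 on the log2 scale, adjusted p = 7.17e-08). Ipo9, another histone carrier, rose by 2.19 and Kpnb1 by 1.63 on the log2 scale. Tnpo2, an importer of RNA-binding proteins with a proline-tyrosine signal, was at 33.1 and 37.5 CPM in Naive, 8.49, 9.89, 8.97, 16.4 and 10.4 CPM in Ag and 37.8, 45.8, 43.9, 35.5 and 37.6 CPM in Ag+Costim. Ag lay below both other groups, and the rise over Ag was 3.72-fold (adjusted p = 7.32e-07).

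The exportins take proteins and RNA out of the nucleus, and all 6 were higher in Ag+Costim than in Ag, Xpo4 on the count scale only. Xpo7 had the largest change, 6.74-fold (log2 2.75, SE 0.16, adjusted p = 3.12e-08). It was at 60.5 and 75.3 CPM in Naive, 16.2, 20.8, 19.2, 27.1 and 19.9 CPM in Ag and 132, 187, 139, 111 and 126 CPM in Ag+Costim, with no overlap. Xpo1 (CRM1), the main exporter of proteins with a leucine-rich signal, was at 81.1 and 92.1 CPM in Naive, 41.8 to 64.9 CPM in Ag and 167 to 327 CPM in Ag+Costim, a rise of 2.20 on the log2 scale over Ag. Xpot, which exports tRNA, rose by 1.42, and Xpo5, which exports miRNA precursors, by 1.65.

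The 6 THO genes had the smallest median change with costimulation among the roles with more than 1 member. Of them 4 rose by 0.23 to 0.38 on the log2 scale, Thoc1 was not called and Thoc7 fell, and their median was 0.29 beside 1.64 over the 42 other members. Thoc6 had the largest rise (0.38, SE 0.09, adjusted p = 0.00291), at 39.8 and 38.8 CPM in Naive, 59.3, 62.5, 65.2, 57 and 52.7 CPM in Ag and 77.4, 83.3, 80.7, 63 and 82.7 CPM in Ag+Costim. Ag+Costim 4 fell within the Ag libraries, and Naive was below both groups. Under upper-quartile scaling, which lowered the median of all genes to -0.24, Thoc2, Thoc3, Thoc5 and Thoc6 were no longer called, nor were Nup35 and Ipo11. Thoc7 read 69.1 and 64.2 CPM in Naive, 150, 118, 158, 109 and 127 CPM in Ag and 98.2, 87.7, 82.7, 89.7 and 87.1 CPM in Ag+Costim. Every Ag library was above every Ag+Costim library, and these were above Naive. The fall with costimulation was 1.49-fold (log2 -0.57, SE 0.10, adjusted p = 0.000366). With a trend on transcript length taken out of each library, Thoc7 was at -0.30 (SE 0.09, adjusted p = 0.0109). In the same fit Thoc2 turned from 0.23 to -0.15 (SE 0.10, adjusted p = 0.247) and was not called. Thoc1 was at -0.10 (adjusted p = 0.388), and Thoc3, Thoc5 and Thoc6 stayed higher at 0.41, 0.41 and 0.63. Thoc7 overlaps Atxn7 on the opposite strand, which reads without strand cannot separate.

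**Figure D3:**
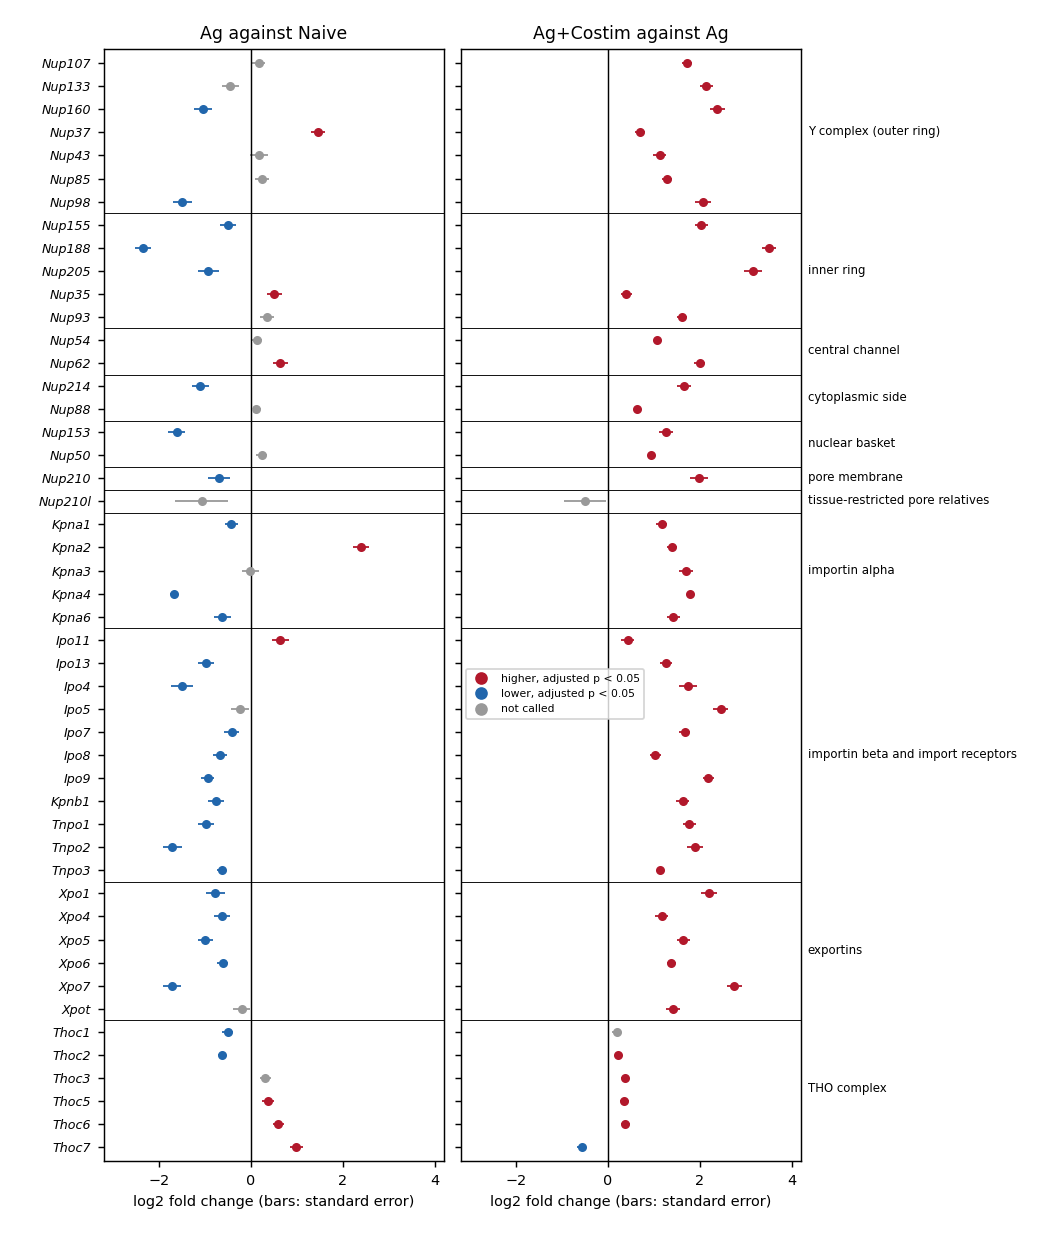
Log2 fold change of each member for Ag against Naive (left) and Ag+Costim against Ag (right), with bars of 1 standard error, coloured by call at an adjusted p under 0.05. The Ag libraries enter both panels. On the right 45 of 48 members are called higher and only Thoc7 lower, while on the left 27 are called lower and 8 higher.

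Antigen without costimulation moved most members the other way from Naive. In Ag against Naive, 27 members were lower and 8 higher, where 22.5% of all genes were called lower and 24.2% higher. The median was -0.56 over the members and 0.02 over all genes. Karyopherins made up 17 of the 27, with Nup188 (log2 -2.35, SE 0.17, adjusted p = 3.68e-07), Xpo7 (-1.72, SE 0.19, adjusted p = 9.87e-06), Tnpo2 (-1.71, SE 0.20, adjusted p = 1.64e-05), Kpna4 (-1.67, SE 0.09, adjusted p = 5.8e-08) and Nup153 (-1.62, SE 0.19, adjusted p = 1.59e-05) the largest falls. Higher were Kpna2, Nup37, Thoc7, Ipo11, Nup62, Thoc6, Nup35 and Thoc5. The count of 8 was 5 without Naive 1 and 4 without Naive 2.

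This fall moved with transcript length. The members' transcripts were long, with a median of 4736 bases beside 2817 bases for protein-coding genes at the same count minimum. Among all 6564 tested genes of 3000 bases or more, the median log2 fold change was -0.45 in Ag against Naive and 0.32 in Ag+Costim against Ag. Among the 12253 shorter genes it was 0.24 and -0.23, respectively. All 27 members called lower in Ag were among the 35 long members, where 40.0% of all long genes were called lower and 13.8% higher. Of the 13 short members 7 were called higher and 0 lower, where 29.8% of all shorter genes were called higher and 13.1% lower. When a smooth trend on transcript length was taken out of each library, 11 members were lower and 11 higher in Ag against Naive and the median was 0.03. The 11 that stayed lower were Nup98, Nup160, Nup188, Nup214, Nup153, Kpna4, Ipo4, Ipo13, Tnpo2, Xpo5 and Xpo7, with Nup188 at -1.73 and Kpna4 at -1.24. With the same correction 43 of the 45 members remained higher in Ag+Costim than in Ag, all but Thoc2 and Ipo11, with a median of 1.21 over the 48. Length and any difference in RNA integrity between groups cannot be told apart here.

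**Figure D4:**
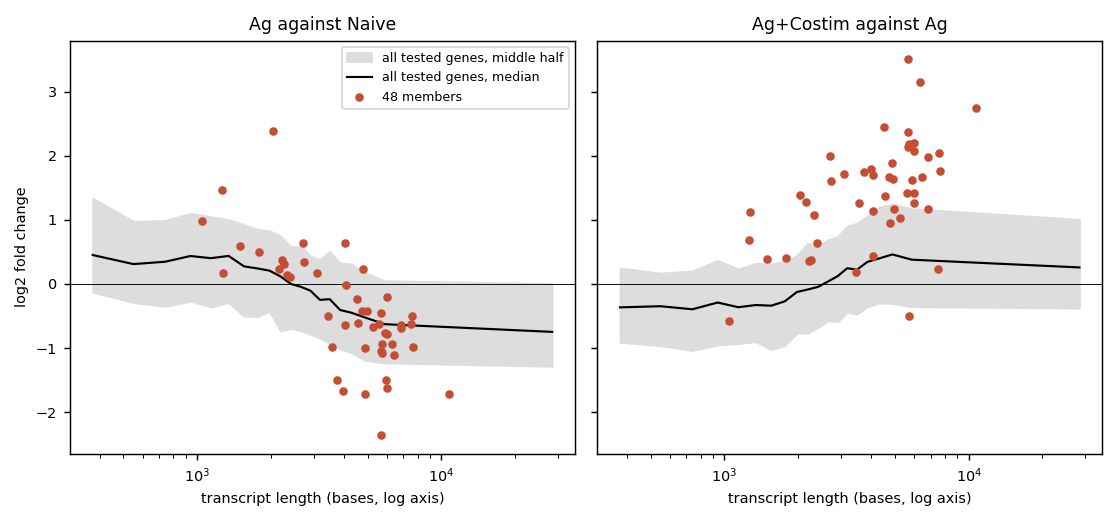
Log2 fold change against transcript length (bases, log axis) for Ag against Naive (left) and Ag+Costim against Ag (right). Red points are the 48 members, the black line is the median of all tested genes in bins of length and the grey band their middle 50%. On the left the members follow the falling line, and on the right most lie above the band.

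Compared with Naive, Ag+Costim held more RNA of most members. Of the 48, 39 were higher and 3 lower, where 26.9% of all genes were called higher and 25.4% lower, and the median was 0.94 beside -0.02 over all genes. Kpna2 rose most (13.8-fold), followed by Nup62 (6.21-fold), Nup205 (4.66-fold), Ipo5 (4.65-fold) and Nup37 (4.43-fold). Nup188, at 2.22-fold, and Xpo7, at 2.05-fold, were also above Naive despite their low values in Ag. Not called were 6 members, the karyopherins Kpna4, Tnpo2 (log2 difference 0.18, adjusted p = 0.489), Ipo4 (0.25, adjusted p = 0.421), Ipo8 (0.36, adjusted p = 0.0871) and Ipo13 (0.28, adjusted p = 0.213), and Nup153 (-0.36, adjusted p = 0.148). Gm49378, on the strand of Ipo4, held counts equal to 19.4% of those of Ipo4 in Naive and 0.658% in Ag+Costim. Thoc1, Thoc2 and Nup210l were the 3 that fell. That count of 3 was 1 without Ag+Costim 3, Ag+Costim 5 or Naive 1, and 0 without Naive 2.

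Per length, on the deposited FPKM scale, Thoc7 was the member with the highest level in Naive (75.8 ± 9.74 FPKM, SD, n = 2) and in Ag (141 ± 21.6 FPKM, SD, n = 5). In Ag the next was Kpna2 (132 ± 20.3 FPKM), closer to Thoc7 than 1 SD. In Ag+Costim the highest level was that of Kpna2 (337 ± 34.4 FPKM), followed by Nup85 (109 ± 15.2 FPKM), Nup62 (103 ± 14 FPKM), Thoc7 (96.4 ± 8.25 FPKM) and Nup93 (92.4 ± 10.1 FPKM). The 4 that follow Kpna2 were within their SDs of their neighbours. Nup210l had the lowest level in each group.

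Pathway genes outside the naming rule moved in both directions with costimulation. Of 11 tested pore genes with other names, costimulation raised 7 and lowered 1 (median 0.74), where 26.6% of all genes were called higher and 26.5% lower. Nupl1, with 1 count in all, was not tested. Ndc1, which anchors pores in the membrane, rose by 2.17 (SE 0.21, adjusted p = 1.78e-06) and Gle1, an activator of the export helicase, by 0.70 (SE 0.07, adjusted p = 1.82e-06). Tpr, the main fibre of the nuclear basket, fell by 0.36 (SE 0.06, adjusted p = 0.000315), with means of 389 ± 10.8 CPM without and 304 ± 13.8 CPM with costimulation (SD, 5 libraries each).

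Of 11 genes of the Ran cycle and other transport receptors, 9 were higher and 1 lower (median 0.82), beside 26.6% and 26.5% of all genes. The 9 and the median included Ranbp17, which had no counts outside Ag+Costim. It passed the filter on low counts through that group alone and could only be called higher, so its call adds nothing to the comparison with all genes. Rcc1, which charges Ran with GTP, rose by 2.36 (adjusted p = 2.89e-08) from 41 ± 5.03 to 210 ± 38.8 CPM, and Cse1l (CAS), which returns importin alpha to the cytoplasm, by 2.08 (adjusted p = 3.47e-08) from 67.8 ± 5.12 to 287 ± 54.4 CPM. Snupn, the adaptor for import of spliceosomal snRNPs, fell by 0.28 (adjusted p = 0.0375). Of 22 other mRNA export genes tested, 12 were higher and 5 lower (median 0.46), where 26.6% of all genes were called higher and 26.5% lower, so the share that fell was near the background. Luzp4 had no counts, and Zc3h11a was left out because 2 gene identifiers share its symbol. Ddx19a, a helicase of the cytoplasmic side, rose by 2.53 (adjusted p = 3.62e-09) and Ddx39b, the helicase that works with THO, by 0.97 (adjusted p = 1.8e-07). The TREX-2 subunits Sem1 and Eny2 fell by 0.74 (adjusted p = 6.62e-05) and 0.42 (adjusted p = 0.00239). In Ag against Naive the 3 lists had 2 higher and 2 lower, 5 and 3, and 11 and 6, respectively, where 24.2% of all genes were called higher and 22.5% lower.

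Markers of dividing cells and of other cells moved with the groups. The 10 proliferation markers summed to 284 and 297 CPM in Naive, 1133 to 2182.3 CPM (median 1851) in Ag and 5117 to 7052 CPM (median 6711) in Ag+Costim. All 10 were higher in each step, with Rrm2 the most abundant. Their part in the members' changes was not tested. The 9 T cell genes, led by Trbc2, summed to 17060 and 16125 CPM in Naive, 16621 to 23331 CPM in Ag and 8498 to 11269 CPM in Ag+Costim. With costimulation 8 of the 9 fell, and 8 were lower than in Naive. Cd4 stayed at or under 2.44 CPM in every library. The 6 red cell genes, led by Hba-a1, reached 6379 CPM in Ag 4 and 626 to 2641 CPM in the other Ag libraries, with 14.5 to 223 CPM in Ag+Costim and 2069 and 150 CPM in Naive. The 6 B cell genes, led by Cd79b, summed to 29.9 and 27.2 CPM in Naive, 109 to 161 CPM in Ag and 23.3 to 66.3 CPM in Ag+Costim. All 6 were higher in Ag against Naive, and 3 fell with costimulation. The 8 myeloid genes, led by Cst3, summed to 201 and 106 CPM in Naive, 229 to 333 CPM in Ag and 186 to 246 CPM in Ag+Costim. In Ag against Naive 3 of them were higher and 2, S100a8 (3.68-fold) and S100a9 (3.66-fold), were lower, these 2 with overlapping groups. With costimulation Cst3 fell 1.59-fold, while the less abundant Adgre1 (2.61-fold), Csf1r (2.93-fold) and Itgam (5.29-fold) rose, each with overlapping groups. The part of any of these cells in the members' changes was not tested. No marker was at 0 in every library.

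Transcript classes of the members' summed counts also differed. Such shares move with the mix of members as well as within them. Thoc1, for example, had a mean retained-intron share of 29.1% in Ag and rose by only 0.19 on the log2 scale with costimulation, less than most members. Of the members' counts, retained-intron transcripts took 6.16% and 6.13% in Naive, 3.96% to 5.28% in Ag and 1.46% to 2.1% in Ag+Costim. Over all annotated genes the same class took 7.45% and 7.87%, 4.14% to 5.96% and 3.33% to 3.80%. Protein-coding transcripts took 90.2% and 88.3% of the members' counts in Naive, 89.9% to 92.6% in Ag and 95.2% to 96.7% in Ag+Costim. Over all annotated genes they took 81.6% and 80.8%, 83.1% to 86.3% and 88.7% to 89.7%. Of 39 members with an annotated retained-intron transcript and at least 20 counts in each library, 12 (30.8%) had a lower share in every Ag+Costim library than in any Ag library, where 14.5% of such genes did, and 0 had a higher share, where 2.29% did. The 12 were Nup43, Nup98, Nup153, Nup155, Nup214, Kpna1, Ipo11, Tnpo2, Tnpo3, Xpo4, Xpo5 and Xpot. In Xpo4 the share was 24.2% and 20.1% in Naive, between 29.1% and 49.2% in Ag and between 6.5% and 14.2% with costimulation. In other members it varied widely between libraries of a group. In Xpo7 it ran from 0.15% to 21.2% in Ag and from 0.26% to 31.0% in Ag+Costim, and in Ipo8 from 7.8% to 51.8% in Ag.

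Tnpo2 (chr8:85036915-85057583, plus strand) changed most in make-up. Its retained-intron transcripts held 71.1%, 97.7%, 88.6%, 84.5% and 89.6% of its counts in the Ag libraries, 5.28%, 3.00%, 1.95%, 4.85% and 7.11% in Ag+Costim and 3.85% and 8.06% in Naive. Only Ag stood apart. In counts, its protein-coding transcripts had 10 to 106 in Ag against 1337 to 2007 in Ag+Costim and 1537 and 1622 in Naive, and the retained-intron transcripts 275 to 432 against 40 to 103 and 62 and 144. The assignment of single-end reads to transcripts by StringTie is an estimate, and within the coding class it moved between Tnpo2-201 and Tnpo2-202 from library to library. Tnpo2 also overlaps A230103J11Rik on the opposite strand, which reads without strand cannot separate.

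**Figure D5:**
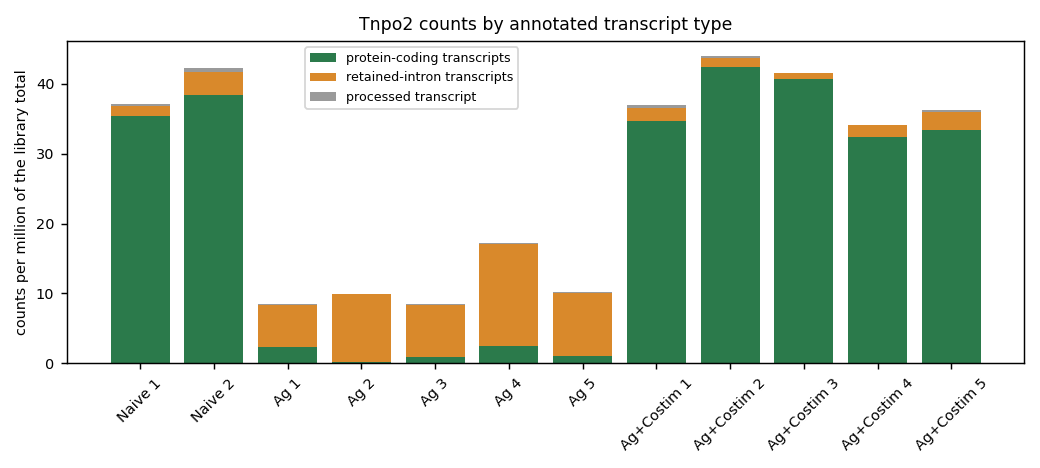
Tnpo2 counts, scaled to the library total, in each of the 12 libraries, stacked by annotated transcript type. Coding transcripts fill most of each Naive and Ag+Costim bar, and retained-intron transcripts most of each Ag bar.

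The Whippet values, Psi or the share of reads that include a node (an exon or part of one), were deposited as 1 value per group for Ag and Ag+Costim, so they carry no replicate error. Of 954 core exon nodes in the members, 48 (5.03%) were higher by over 0.1 in Ag+Costim and 0 were lower by as much, where 1.48% and 0.548% of all such nodes were. The median difference was 0.03 in the members and 0.0045 over all such nodes. Of the 48 nodes, 16 were in Nup188, 10 in Tnpo2, 9 in Nup205 and 8 in Nup214. Their mean counts in Ag were 412 for Tnpo2, 555 for Nup205 and 1185 for Nup214, with Nup188 below these. Across the 46 members with 3 or more core nodes, the median Psi difference and the mean Ag count had a Spearman rho of -0.83, a description over genes that share the same libraries. Tandem ends and starts were near the background. Of 40 tandem end nodes 7 were higher and 6 lower (15.0% and 14.9% of all such nodes), and of 40 tandem start nodes 5 were higher and 7 lower (12.9% and 13.3%). The members held 1 retained-intron node, which was 0.08 higher in Ag+Costim, under the cutoff of 0.1. The largest differences, singled out after their values were seen, were at the end of Kpna6, where the distal node (chr4:129643980-129647483) went from a Psi of 0.88 in Ag to 0.30 in Ag+Costim, and at the end of Tnpo2, where the last node, of 3 bases (chr8:85057581-85057583), went from 0.81 to 0.31.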

How the data were processed

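The authors sequenced SMART-Seq v4 libraries as single-end reads of 100 bases, aligned them to mm10 with HISAT2 (2.1.0, per the submitters' processing notes) and quantified them with StringTie (2.1.0). The deposited count values per gene and per transcript are derived from coverage and are not normalised. The deposited FPKM values come from StringTie and scale for length and library size. The authors computed Psi, a fraction, with Whippet, pooled to 1 value per group. The sequencing core's deposited sheet gives read counts and percent aligned (72.3 to 76.5%). Columns that hold the authors' own comparison (Psi difference, probability) and the event's complexity and entropy were not used.

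Identifiers were matched to GENCODE vM21 (GRCm38), and unannotated loci, with 0.0508% to 0.121% of a library's counts, were left out. Counts were tested with edgeR 4.0.16 (filterByExpr, TMM, robust quasi-likelihood fit over all 12 libraries, Benjamini-Hochberg adjustment over 18817 genes, threshold 0.05). CPM are counts scaled by TMM library size. Upper-quartile scaling, DESeq2 1.42.0, no filter, the groups compared alone, a replicate block, a transcript length offset (lowess, span 0.3), limma 3.58.1 on log2(gene FPKM + 1) or + 0.1, and leaving out each library were tried. Tested on simulated data for Ag+Costim against Ag (15994 genes, 200 changed by 1 on the log2 scale), the edgeR fit recovered 89 (44.5%) with 7 false calls. A planned test of transcript usage (diffSpliceDGE) is not reported: on simulated counts it recovered 4 of 200 changed transcripts and called 65 in unchanged genes.

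Each member could be named. Library by library values were given, in each role, for the called members with the largest rise and fall with costimulation and for the largest change in Ag against Naive. Nup205, by library, and Nup37 and Xpo1, by range, were added after their values were seen. Of each outside list the 2 genes with the smallest adjusted p in each direction were named. The members and lists were chosen with earlier results of these data known. In 33 members another gene overlaps, on the same strand in 18. The study describes its expression samples as individual biological replicates, while the labels do not say whether each library is 1 mouse, and p-values measure the spread between these samples. Counting limits cover counting error only.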

Additional observations from a re-analysis of the deposited data

Results flagged for a closer look

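In 12 of 96 groups of 5 libraries (48 members in Ag and in Ag+Costim), 1 library stood apart from the other 4 by Dixon's 95% criterion, which chance meets in about 1 of 20 independent groups. The members share the same libraries, so the 96 groups are not independent and the 12 cannot be set against that rate. In Ag 4, the library with the fewest counts and the highest red cell markers, Nup160 (26.9 CPM), Tnpo1 (35.2 CPM), Tnpo2 (16.4 CPM) and Nup210l (3.76 CPM) were high and Kpna6 (5.50 CPM) was low. In Ag+Costim 2, the library with the largest member share, Kpna1 (157 CPM), Ipo11 (87.2 CPM), Ipo13 (50.5 CPM), Nup153 (121 CPM) and Nup210 (699.9 CPM) were high. Thoc3 was low in Ag+Costim 4 (88.6 CPM) and Nup85 in Ag 5 (77 CPM). The part of depth or of other cells in these values was not tested. Without Ag 4, Nup210l was lower in Ag than in Naive (log2 -1.85, adjusted p = 0.000348), and it was also called lower with a replicate block. Without Ag+Costim 2, Nup153 was lower in Ag+Costim than in Naive (-0.50, adjusted p = 0.019). With all libraries, Nup153 was also called lower there under upper-quartile scaling and on the FPKM scale.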

How the results depend on the processing

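In Ag+Costim against Ag, the members called higher numbered 39 to 46 and those called lower 1 under every alternative run. The median of 1.42 was 1.23 with upper-quartile scaling, 1.21 with the transcript length offset and 1.23 on log2(FPKM + 1) with or without the filter. In Ag against Naive, the length offset left 11 lower and turned the median from -0.56 to 0.033, and log2(FPKM + 1) without the filter gave 5 higher. In Ag+Costim against Naive, the length offset left 1 lower. The median of 0.94 was 0.65 on log2(FPKM + 1) with or without the filter and 0.69 on log2(FPKM + 0.1). On both FPKM scales Kpna6, Nup98, Tnpo3, Xpo5, Thoc3, Xpo4 and Nup214 were no longer called higher. Without the filter Tnpo1 and Thoc7 were also lost. Upper-quartile scaling ended the higher calls of Nup98, Thoc7, Xpo4 and Nup214. Nup153 was called lower in each of these FPKM and upper-quartile fits. With each of the 12 libraries left out in turn, Ag+Costim against Ag had 45 to 46 higher, 1 lower and medians of 1.38 to 1.52. Ag against Naive had 4 to 10 higher, 21 to 28 lower and medians of -0.62 to -0.51, and Ag+Costim against Naive had 34 to 40 higher, 0 to 3 lower and medians of 0.88 to 1.01. A lone Naive library was assumed to vary like the others. Apart from the length offset, the cause of these shifts was not tested. Any pairing of the samples by replicate number was weak. Deviations of same-numbered Ag and Ag+Costim libraries correlated at 0.02 to 0.10, and those with other numbers at -0.08 to 0.07. With numbers as a replicate block, 46 members were higher and 1 lower in Ag+Costim against Ag (median 1.42), 9 and 23 in Ag against Naive (-0.46) and 39 and 3 in Ag+Costim against Naive (1.00). In 3 of 5 pairs a library correlated best with its own number. The alternatives planned for the transcript usage test were not run. Every member was above the level of 3 counts (0.0609 to 0.125 CPM) in every library, with Nup210l lowest.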

Other observations

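Values of 3 other genes of mRNA export were singled out after they were seen. Alyref, the adaptor between THO and the export receptor, was at 36.8 and 37.0 CPM in Naive, 222 to 349 CPM in Ag and 77 to 240 CPM in Ag+Costim. It rose from Naive to Ag by 2.87 on the log2 scale (adjusted p = 3.34e-05) and fell with costimulation (log2 -0.67, SE 0.24, adjusted p = 0.0277), with groups that overlapped. Sem1 was at a mean of 161 CPM in Naive, 329 ± 47.4 CPM in Ag and 198 ± 21.4 CPM in Ag+Costim. Nxf1, the export receptor itself, was at a mean of 275 CPM in Naive, 171 ± 12.4 CPM in Ag and 235 ± 8.97 CPM in Ag+Costim.

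Ranbp17, a karyopherin-like receptor outside the naming rule, had no counts in the Naive and Ag libraries and was at 0.901, 0.510, 0.643, 0.0465 and 0.675 CPM in Ag+Costim, of which the fourth is under the level of 3 counts.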
